A study of Mus musculus with 7 samples.

Results

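The 9 genes described here (the members) encode factors that bind imprinting control regions (ICRs) or methylated DNA, together with the paralogues of these factors. They are Ctcf, Ctcfl, Zfp57, Zfp445, Mbd1, Mbd2, Mbd3, Arid4a and Arid4b. The rows were chosen by symbol from a table of 20643 genes, and all 9 members had a row. Total RNA-seq was performed on EGFP+ prospermatogonia, the fetal male germ cells in which paternal methylation imprints are laid down, sorted from mouse fetuses (15 dpc in the source name, 15.5 dpc in the protocol). There were 2 WT libraries (replicates 1 and 2), 2 from H19Ter/H19Ter fetuses (replicates 3 and 4) and 3 from H19Ter+neo/H19Ter+neo fetuses (replicates 5, 6 and 7). Both mutants are homozygous and have a transcription terminator before the ICR of the H19/Igf2 domain, inserted to stop the low-level transcript that crosses it. H19Ter+neo also has the Pgkneo selection cassette, which Hprt-Cre removed in the H19Ter line.

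The mutant fetuses carried the TgOG2 transgene, in which Oct4 (Pou5f1) sequences drive EGFP in germ cells. The paper does not state this for the WT fetuses. Both mutant lines came from chimeras of 1 targeted ES cell line. These lines were bred on an inbred background and, for germ cells, crossed with TgOG2, a transgenic line of mixed strain origin. The strain background of the WT fetuses was not given in the sources used here. Background and genotype therefore cannot be told apart. Testes of several fetuses could be digested together, and no source used here ties a library to a litter, so the spread between libraries may be partly technical. Depth was 45.1 and 45.9 M read pairs in WT, 51.2 and 37.5 in H19Ter and 84.1 to 87.3 in H19Ter+neo. The H19Ter+neo libraries were thus deeper than all others, and depth and genotype cannot be told apart there. All 15 fetal male germ cell markers had a value, with summed levels of 4432 to 4542 counts per M read pairs (CPM) in WT, 4371 to 4554 in H19Ter and 5129 to 5323 in H19Ter+neo. These sums hide differences in both directions. A marker was called at a limma adjusted p under 0.05 against WT. In H19Ter 3 were called higher and 5 lower, beside 14.1% and 11% of all genes. In H19Ter+neo 7 were called higher and 3 lower, beside 27.7% and 26.7%. Mean Dnmt3l was at 39.4, 90.1 and 91.1 CPM in WT, H19Ter and H19Ter+neo, and Nanos2 at 57.9, 40.6 and 27.1. Sertoli cell markers, 9 of 10 with a value, summed to 21.0 to 21.7, 23.8 to 28.2 and 17.9 to 24.3 CPM. Of these, 2 were called higher and 0 lower in H19Ter, and 1 higher and 2 lower in H19Ter+neo. Sox9 rose in both mutants (log2 1.40 and 0.83, limma adjusted p = 0.000780 and 0.00112). Interstitial and peritubular markers, 10 of 10, summed to 53.3 to 67.2, 63.2 to 126 and 48.4 to 86.6 CPM. Leydig cell markers, 5 of 8, summed to 11.6 to 15.2, 11.1 to 26.0 and 5.46 to 29.8 CPM. Endothelial markers, 7 of 8, summed to 28.5 CPM in each WT library, 42.0 to 42.2 in H19Ter and 40.5 to 46.1 in H19Ter+neo. Leukocyte markers, 2 of 7, summed to 4.18 to 4.98, 5.52 to 6.09 and 4.28 to 5.09 CPM. Adgre1 was higher in H19Ter+neo than in WT (log2 1.94, limma adjusted p = 0.00379), but at means of only 0.652 and 0.157 CPM. The other leukocyte marker, Cd68, was not called there (log2 -0.15, adjusted p = 0.398). Of 7 erythroid markers 1, Alas2, had a value, at 1.66 to 2.75, 2.66 to 3.53 and 4.34 to 5.82 CPM, and it rose in H19Ter+neo (log2 1.21, limma adjusted p = 0.00152). The marker genes named here were named after their values were seen, and the part of these cells in the levels of the members was not tested. In these bulk samples, fewer cells of a type and less RNA per cell cannot be told apart.

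CTCF is the zinc finger insulator protein that binds the unmethylated maternal H19/Igf2 ICR and keeps Igf2 from its enhancers. CTCFL (also BORIS) is its paralogue in male germ cells, with a similar zinc finger array. ZFP57 and ZFP445 are KRAB zinc finger proteins that bind methylated ICRs and protect their methylation after fertilization, through the corepressor TRIM28 and the H3K9 methyltransferase SETDB1. MBD1 and MBD2 bind methylated CpG. MBD3 resembles MBD2 but binds methylated DNA poorly in mammals, and either can be the MBD subunit of the NuRD deacetylase complex. ARID4A and ARID4B are paralogues that bind the retinoblastoma protein RB1 and belong to the SIN3 deacetylase complex. They are known for a part in keeping the Snrpn imprint.

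Promoters are shown for 4 members, 3 of which were lower in H19Ter+neo (Ctcf, Zfp445, Mbd3) and 1 of which was the least abundant (Zfp57). Each is the 250 bases before a RefSeq start (GRCm38.p6, the assembly of mm10), read 5′ to 3′ on the strand of the gene, with every CpG in capitals.
Ctcf promoter, chr8:105636288-105636537, plus strand: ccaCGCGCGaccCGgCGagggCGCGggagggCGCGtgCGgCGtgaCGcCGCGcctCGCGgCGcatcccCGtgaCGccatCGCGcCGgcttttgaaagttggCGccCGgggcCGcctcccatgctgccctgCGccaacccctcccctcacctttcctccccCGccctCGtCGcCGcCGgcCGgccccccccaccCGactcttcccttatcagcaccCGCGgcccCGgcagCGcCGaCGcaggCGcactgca
Zfp445 promoter, chr9:122866007-122866256, minus strand: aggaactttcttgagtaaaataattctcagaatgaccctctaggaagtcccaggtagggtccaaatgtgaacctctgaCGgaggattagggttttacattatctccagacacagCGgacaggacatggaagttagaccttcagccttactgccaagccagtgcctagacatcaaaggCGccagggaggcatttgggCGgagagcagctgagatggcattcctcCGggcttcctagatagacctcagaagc
Mbd3 promoter, chr10:80399532-80399781, minus strand: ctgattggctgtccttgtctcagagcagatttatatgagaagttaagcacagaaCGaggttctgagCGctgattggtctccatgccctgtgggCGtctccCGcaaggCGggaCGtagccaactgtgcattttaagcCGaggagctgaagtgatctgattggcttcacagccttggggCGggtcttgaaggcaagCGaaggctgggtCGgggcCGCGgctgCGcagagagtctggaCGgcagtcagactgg
Zfp57 promoter, chr17:37000913-37001162, plus strand: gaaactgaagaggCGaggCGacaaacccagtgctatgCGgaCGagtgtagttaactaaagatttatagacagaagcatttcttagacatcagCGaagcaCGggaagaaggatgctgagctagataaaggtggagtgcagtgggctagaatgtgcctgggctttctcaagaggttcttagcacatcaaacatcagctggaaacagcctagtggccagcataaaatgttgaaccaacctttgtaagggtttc

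The stretch before Ctcf holds 40 CpGs, more than 98.7% of the 32851 promoters in the RefSeq table, for which the median is 6. The stretch before Mbd3 holds 14, that before Zfp57 holds 6 and that before Zfp445 holds 5. The 3 members shown that were lower in H19Ter+neo thus differed widely in CpG number, and the promoter of Arid4a, which was also lower, was not analysed here. The GC box letters GGGCGG, searched on both strands, occur 1 time each before Ctcf, Zfp445 and Mbd3 and in 32.7% of all promoters. The CCAAT letters occur 3 times before Mbd3, not before Ctcf, Zfp445 or the shown Zfp57 start, and in 33.8% of all promoters. The ZFP57 hexamer TGCCGC occurs in none of the 4 stretches and in 8.68% of all promoters. A promoter was found for 5 of 9 members, the fifth being Arid4b with 8 CpGs, and Zfp57 has 3 starts in the table.

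Levels per length were compared between members in WT. Levels differed widely, from 29.5 ± 0.990 CPM per kb of annotated exon (SD, n = 2) for Mbd3 to 0.612 ± 0.0736 for Zfp57. Arid4a followed Mbd3 at 21.9 ± 2.12, and then came Ctcf at 17.9 ± 0.666 and Zfp445 at 17.7 ± 1.36, which did not differ beyond their spread. Arid4b stood at 11.1 ± 0.0914, Mbd2 at 9.86 ± 0.0947 and Mbd1 at 7.75 ± 0.292. Ctcfl was at 1.69 ± 0.397, an order of magnitude below Ctcf. The low levels of Zfp57 and Ctcfl in WT rest on 95 to 112 and 202 to 284 read pairs per library. Over all 7 libraries the ranges were 95 to 272 and 202 to 1012. The choice of length matters most for Arid4b, with 16965 bases of annotated exon and a longest transcript of 5864 bases. Per kb of the longest transcript it was at 32.2 ± 0.265, next to Mbd3 at 35.3 ± 1.18.

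**Figure D1:**
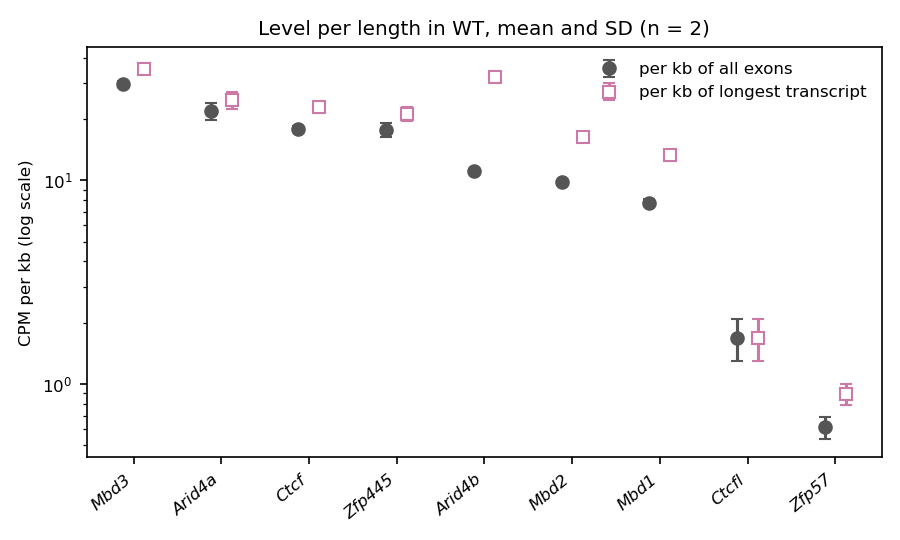
Level of each member per length in WT prospermatogonia, in CPM per kb on a log axis. Points are means of 2 libraries with their SD, filled for the length of all exons and open for the longest transcript. Ctcfl and Zfp57 lie far below the other 7 members on either length, and Arid4b moves from 11.1 to 32.2.

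Each comparison asked which members differed between genotypes. The log2 CPM values of all 20643 genes were fitted together with limma, and a gene was called at a two-sided Benjamini-Hochberg adjusted p under 0.05 over all genes. Comparisons were made between all 3 pairs of genotypes, and both mutants were compared with the same WT libraries. In H19Ter against WT, 3 of 9 members were called, where 25.1% of all genes were called. Ctcfl was higher (1 member, beside 14.1% of genes called higher), and Zfp445 and Arid4a were lower (2 members, beside 11% called lower). In H19Ter+neo against WT, 5 of 9 members were called beside 54.4% of all genes. Ctcfl was again higher (27.7% of genes were called higher), and Ctcf, Zfp445, Mbd3 and Arid4a were lower (26.7% called lower). Between H19Ter+neo and H19Ter, 2 of 9 members were called, both lower (Mbd3 and Arid4a), beside 27.7% of all genes, with 15.2% called lower. The shares of members called were near those of all genes. The median log2 difference of the members was -0.16, -0.07 and -0.08 in the 3 comparisons, and that of all genes was -0.01, 0.01 and 0.01.

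Libraries of the 2 groups did not overlap for 9 of 9 members in H19Ter against WT, beside 67.5% of all genes. Of these, 3 were higher and 6 lower, beside 32.4% and 35% of all genes. They did not overlap for 6 members in H19Ter+neo against WT, beside 71.8%, with 2 higher and 4 lower, beside 36.6% and 35.2%. They did not overlap for 5 members between the mutants, beside 56.3%, all lower, beside 28.1%. All 5 mutant libraries stood on the same side of both WT libraries for 6 members, beside 47.8% of all genes. These were Ctcfl and Zfp57, higher (24.1% of all genes were higher), and Ctcf, Zfp445, Mbd3 and Arid4a, lower (23.8% were lower). The other 3, Mbd1, Mbd2 and Arid4b, passed the test in no comparison, and neither did Zfp57.

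**Figure D2:**
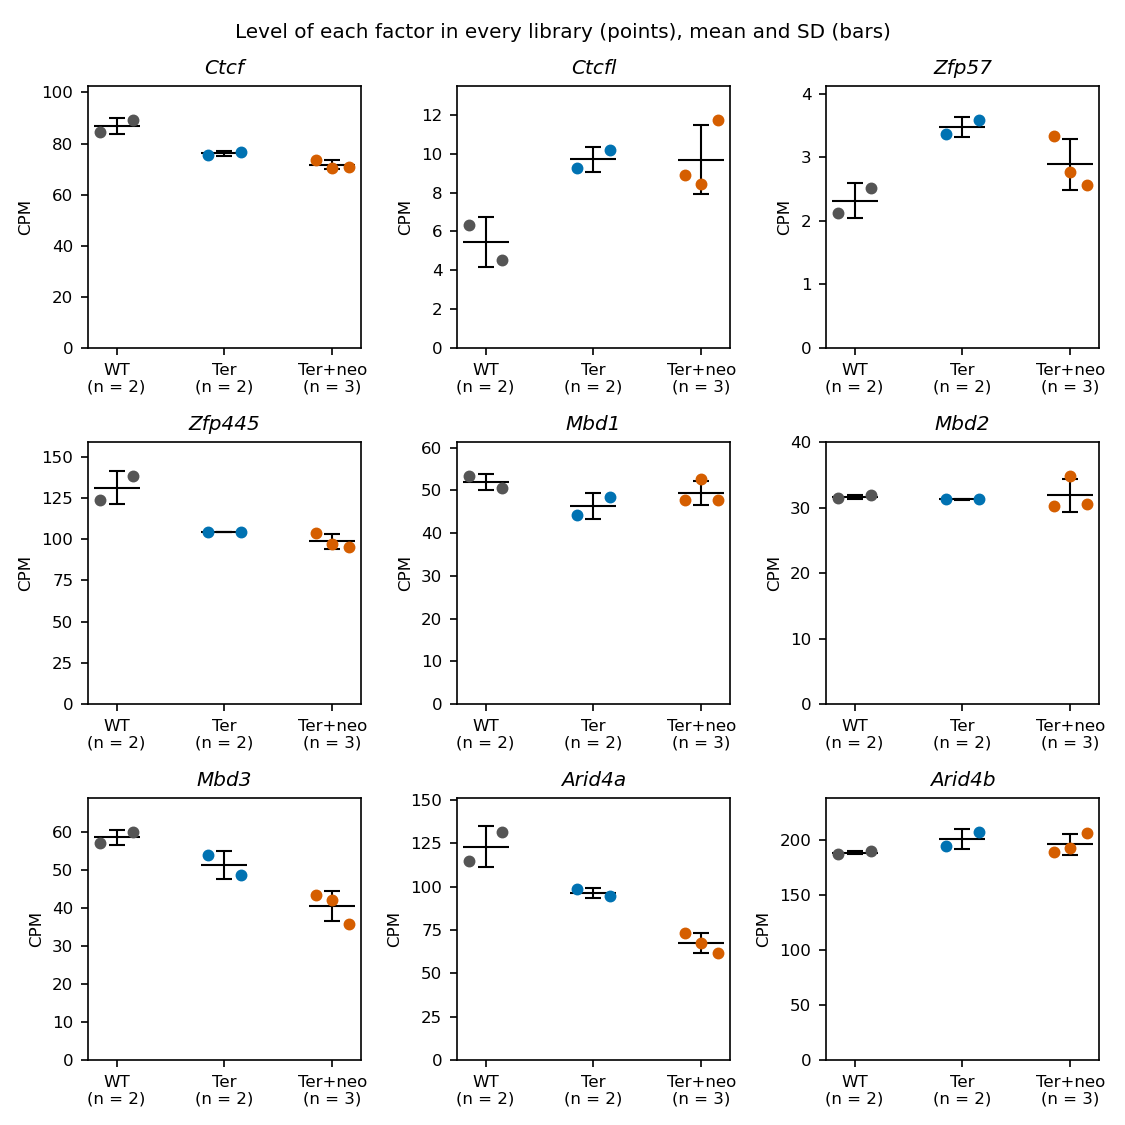
Level of each member in CPM in every library, with 1 panel per gene and each axis starting at 0. Points are libraries of WT, H19Ter/H19Ter (Ter) and H19Ter+neo/H19Ter+neo (Ter+neo), and bars are the mean and SD. Arid4a and Mbd3 step down from WT to Ter to Ter+neo without overlap, Ctcfl is higher in both mutants, and Mbd2 and Arid4b stay near their WT level.

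Ctcf, the insulator gene (ENSMUSG00000005698, chromosome 8 from 105636568 to 105682922, plus strand, GRCm38), was at 84.5 and 89.1 CPM in WT. It was at 75.3 and 76.9 CPM in H19Ter and at 73.7, 70.4 and 71.0 CPM in H19Ter+neo. Each mutant library was below both WT libraries, and the mutants did not overlap each other. In H19Ter+neo the level fell by 17.4%, a log2 difference from WT of -0.28 (SE 0.06, limma adjusted p = 0.00382). In H19Ter it was -0.19 (SE 0.07, adjusted p = 0.0655), with a 95% interval from -0.34 to -0.04 before adjustment. There it was -0.11 at the same total per library and -0.17 with median ratio scaling (adjusted p = 0.250 and 0.0886). With only the groups compared it passed (adjusted p = 0.0443). The difference between the mutants was -0.09 (interval -0.22 to 0.05, adjusted p = 0.329). Of the annotated exon of Ctcf, 7.61% lies opposite to exons of Agrp and Gm5914, which were not analysed here.

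Ctcfl, the germ cell paralogue (ENSMUSG00000070495, chromosome 2 from 173093609 to 173119525, minus strand), moved in the other direction. It was at 6.34 and 4.54 CPM in WT, at 9.24 and 10.2 CPM in H19Ter and at 8.89, 8.46 and 11.7 CPM in H19Ter+neo. All 5 mutant libraries were above WT, and both mutants had about the same mean, 9.70 ± 0.652 (SD, n = 2) and 9.69 ± 1.77 CPM (SD, n = 3). The log2 difference from WT was 0.85 in H19Ter (SE 0.19, limma adjusted p = 0.0120) and 0.83 in H19Ter+neo (SE 0.18, adjusted p = 0.00262), or 1.80-fold and 1.78-fold. Between the mutants it was -0.02, with an interval from -0.41 to 0.37 (adjusted p = 0.959). WT replicate 2 was the lowest library, and without it the difference in H19Ter was 0.61 and no longer passed (adjusted p = 0.114). It was also lost without H19Ter replicate 4 (0.78, adjusted p = 0.0811), and the call in H19Ter+neo passed without any single library.

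Of the annotated exon of Ctcfl, 5.32% lies opposite to the antisense gene Ctcflos. Ctcflos itself was at 2.10 and 1.66 CPM in WT, 2.86 and 2.99 in H19Ter and 2.89, 3.06 and 3.20 in H19Ter+neo. It rose in both mutants against WT, by a log2 difference of 0.64 (limma adjusted p = 0.0330) and 0.70 (adjusted p = 0.00606). The libraries were made to keep strand, but no source used here gives the strand setting of the counting, and whether reads of one entered the values of the other was not tested. Of 7 endothelial markers, 2 were called higher in H19Ter and 6 in H19Ter+neo, beside 14.1% and 27.7% of all genes. Their part in the levels of Ctcfl was not tested.

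Reads of Ctcf and Ctcfl can be told apart by sequence. The longest stretch identical between their coding sequences is 12 bases, well under the 50-base read, and is shown with that of the ARID4 pair to make the scale plain.
Ctcf coding bases 997 to 1008, Ctcfl 970 to 981: accagtggagaa
Arid4a and Arid4b coding bases 259 to 275: agttggtatactgtggt

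For Mbd2 and Mbd3 the longest identical stretch is 26 bases, and for Zfp57 and Zfp445 it is 11 bases. Windows of 50 bases shared with the transcripts of any other gene, on either strand, made up 8.03% of those of Ctcfl, 6.55% of Ctcf, 1.42% of Zfp445, 1.35% of Arid4b and 0.0889% of Mbd1. Zfp57, Mbd2, Mbd3 and Arid4a shared none.

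Zfp57 (ENSMUSG00000036036, chromosome 17 from 37001163 to 37010635, plus strand), which encodes the KRAB zinc finger protein of methylated ICRs, was the least abundant member. It was at 2.12 and 2.52 CPM in WT, at 3.36 and 3.59 CPM in H19Ter and at 3.34, 2.77 and 2.57 CPM in H19Ter+neo. Both H19Ter libraries were above all others, and the lowest H19Ter+neo library was just above the higher WT library. The log2 difference from WT was 0.58 in H19Ter (SE 0.19, limma adjusted p = 0.0501) and 0.31 in H19Ter+neo (SE 0.18, adjusted p = 0.157). Neither passed, but that in H19Ter lay at the threshold and passed under 7 of 16 other settings, among them both other scalings (adjusted p = 0.0311 and 0.0436). The interval in H19Ter+neo ran from -0.08 to 0.70, which includes the difference in H19Ter.

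Zfp445 (ENSMUSG00000047036, chromosome 9 from 122844529 to 122866006, minus strand), the other KRAB zinc finger gene of ICRs, fell in both mutants. It was at 124 and 138 CPM in WT, at 104 and 104 CPM in H19Ter and at 104, 97.0 and 94.9 CPM in H19Ter+neo. In H19Ter it fell by 20.2%, a log2 difference of -0.33 (SE 0.08, limma adjusted p = 0.0132). This difference was -0.25 at the same total per library and -0.30 with median ratio scaling (adjusted p = 0.0302 and 0.0145). In H19Ter+neo Zfp445 fell by 24.7%, a log2 difference of -0.41 (SE 0.07, limma adjusted p = 0.000721). The mutants differed by -0.08 (interval -0.24 to 0.07, adjusted p = 0.399). The call in H19Ter was lost without WT replicate 2 (-0.25, adjusted p = 0.130), H19Ter replicate 3 (-0.33, adjusted p = 0.0698) or H19Ter replicate 4 (-0.33, adjusted p = 0.0770). The call in H19Ter+neo passed without any single library.

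**Figure D3:**
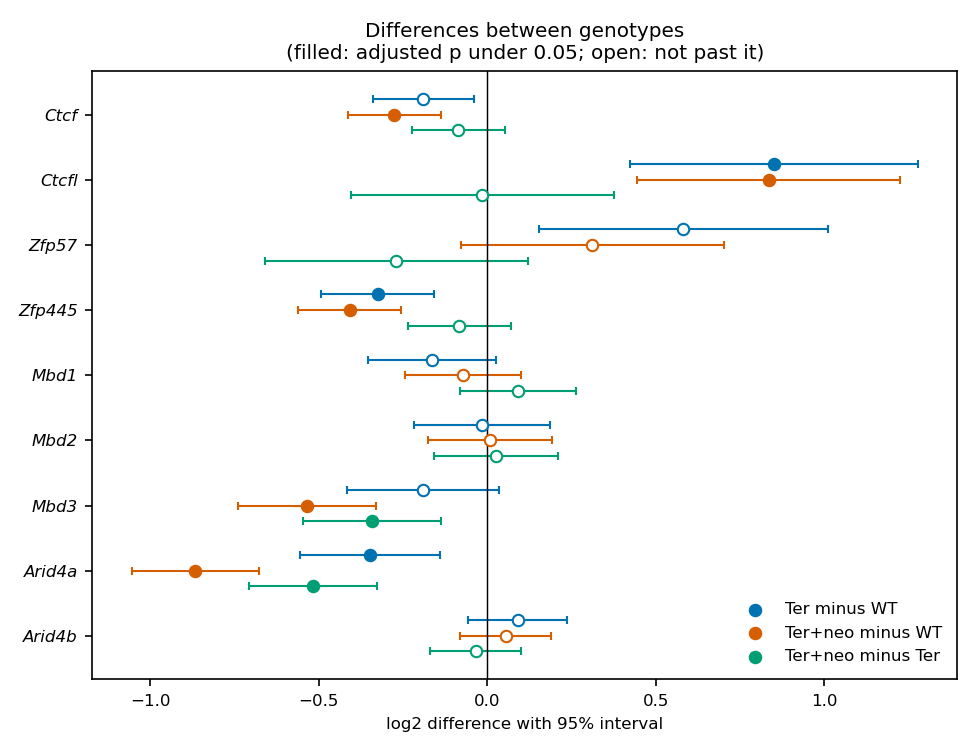
Log2 difference of each member in the 3 comparisons, with the 95% interval of the limma fit before adjustment. Filled points passed the adjusted p of 0.05 and open points did not, and Ter and Ter+neo stand for the H19Ter/H19Ter and H19Ter+neo/H19Ter+neo libraries. Arid4a lies lowest at -0.87 in Ter+neo minus WT, and Ctcfl lies highest at 0.85 in Ter minus WT.

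The methyl-CpG binding genes differed in their response. Mbd1 (ENSMUSG00000024561, chromosome 18) was at 53.3 and 50.6 CPM in WT, 44.3 and 48.6 in H19Ter and 47.8, 52.8 and 47.8 in H19Ter+neo. H19Ter+neo overlapped both other groups, and the log2 differences from WT were -0.16 (interval -0.35 to 0.03, limma adjusted p = 0.181) and -0.07 (interval -0.24 to 0.10, adjusted p = 0.450). Mbd2 (ENSMUSG00000024513, chromosome 18) had the smallest mean differences from WT among the members. It was at 31.5 and 31.9 CPM in WT, 31.3 and 31.3 in H19Ter and 30.3, 34.8 and 30.6 in H19Ter+neo. Its intervals against WT ran from -0.22 to 0.18 in H19Ter and from -0.18 to 0.19 in H19Ter+neo, on the log2 scale.

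Mbd3 (ENSMUSG00000035478, chromosome 10 from 80392539 to 80399550, minus strand), which encodes the NuRD subunit, was at 57.3 and 60.1 CPM in WT. It was at 53.9 and 48.9 CPM in H19Ter and at 43.6, 42.3 and 36.0 CPM in H19Ter+neo. The 3 genotypes did not overlap, with H19Ter between the others. From WT to H19Ter+neo it fell by 31.0%, a log2 difference of -0.53 (SE 0.09, limma adjusted p = 0.000829). After a trend on GC content and length was removed from each library, this difference was smaller, at -0.38 (limma adjusted p = 0.00146). In H19Ter the difference was -0.19 (SE 0.10, adjusted p = 0.188), and with the trend removed it was -0.14 (adjusted p = 0.213). H19Ter+neo was also below H19Ter, by -0.34 (SE 0.09, adjusted p = 0.0207). Mbd3 is the most GC-rich member, at 62.9%. With the trend removed, the differences from WT of -0.14 and -0.38 left a narrower gap between the mutants. The call between the mutants was lost without H19Ter replicate 3 (-0.27, adjusted p = 0.174) or replicate 4 (-0.41, adjusted p = 0.0523). The fall from WT to H19Ter+neo passed without any single library.

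Arid4a (ENSMUSG00000048118, chromosome 12 from 71015990 to 71098592, plus strand), for an RB1-binding SIN3 subunit, showed the largest fall among the members. It was at 115 and 131 CPM in WT, at 98.5 and 94.4 CPM in H19Ter and at 73.2, 67.3 and 62.0 CPM in H19Ter+neo. The 3 genotypes did not overlap. In H19Ter it fell by 21.5%, a log2 difference of -0.35 (SE 0.09, limma adjusted p = 0.0232). This difference was -0.27 at the same total per library and -0.33 with median ratio scaling (adjusted p = 0.0493 and 0.0249). In H19Ter+neo Arid4a fell by 45.1%, a log2 difference of -0.87 (SE 0.09, limma adjusted p = 3.46e-05). H19Ter+neo was below H19Ter by -0.52 (SE 0.09, adjusted p = 0.00198). Among all genes, 7.11% had a log2 difference between H19Ter+neo and WT as low as this or lower. The call in H19Ter was lost without WT replicate 2 (-0.25, adjusted p = 0.198), H19Ter replicate 3 (-0.38, adjusted p = 0.0764) or H19Ter replicate 4 (-0.32, adjusted p = 0.130), and the other calls of Arid4a passed without any single library.

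Its paralogue Arid4b (ENSMUSG00000039219, chromosome 13 from 14063232 to 14199603, plus strand) was at 188 and 190 CPM in WT, 195 and 207 in H19Ter and 189, 193 and 207 in H19Ter+neo. The log2 differences from WT were 0.09 (interval -0.06 to 0.24, limma adjusted p = 0.349) and 0.05 (interval -0.08 to 0.19, adjusted p = 0.472). After a trend on GC content and length was removed from each library, the difference in H19Ter+neo turned to -0.16 and passed (adjusted p = 0.0269). Of the Arid4b exons, 1.51% lies opposite to Ggps1, which passed the test in no comparison.

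Ratios within a pair of related factors do not depend on how libraries are scaled. They are given as a description, with no test, and were taken after the levels of their members were known. For each of the 4 pairs, all 5 mutant libraries lay outside the WT range. No share over other gene pairs was computed. Among single genes, 47.8% had all 5 mutant libraries on the same side of WT. Each pair holds a member that had already separated in this way, so the count adds little to the levels. The log2 ratio of Ctcfl to Ctcf was -4.02 ± 0.40 in WT (SD, n = 2), -2.97 ± 0.08 in H19Ter (SD, n = 2) and -2.90 ± 0.26 in H19Ter+neo (SD, n = 3). That of Zfp57 to Zfp445 was -5.82 ± 0.06, -4.91 ± 0.07 and -5.10 ± 0.13 in the same order. In these pairs the rarer gene gained on the more abundant gene in both mutants, by 1.04 and 1.11 for Ctcfl and by 0.91 and 0.72 for Zfp57. The log2 ratio of Mbd3 to Mbd2 was 0.89 ± 0.03, 0.71 ± 0.10 and 0.35 ± 0.16, and that of Arid4a to Arid4b was -0.62 ± 0.13, -1.06 ± 0.11 and -1.54 ± 0.19. The H19Ter+neo ratios lay below those of H19Ter, without overlap, for 3 of the 4 pairs, all but Ctcfl to Ctcf. Among single genes, 28.1% were lower in H19Ter+neo than in H19Ter without overlap. For Zfp57 to Zfp445 the nearest libraries of the mutants were both at -4.96.

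**Figure D4:**
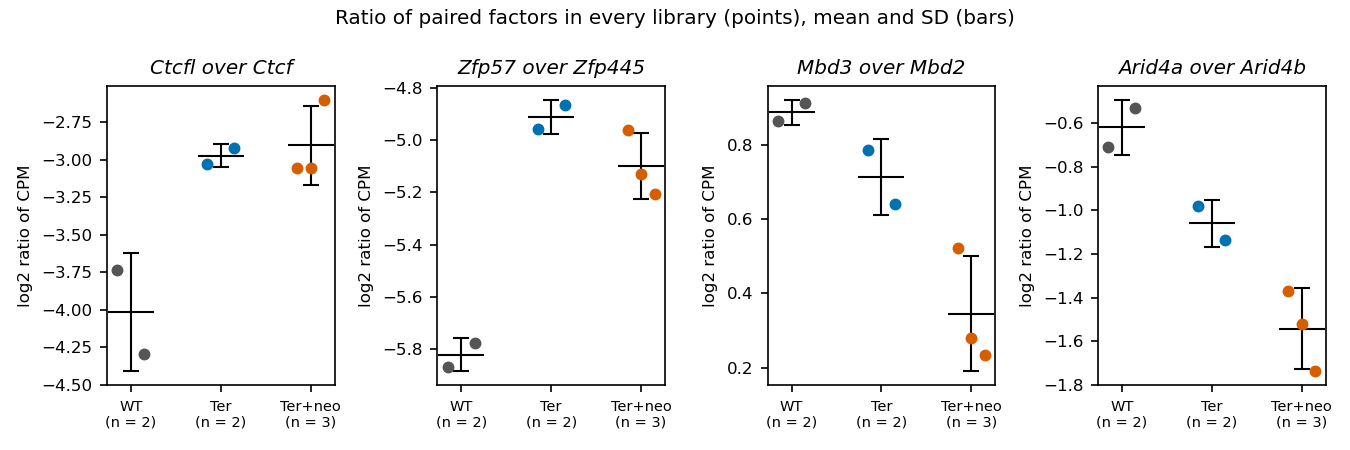
Log2 ratio of the CPM of paired factors in every library. Points are libraries of WT, H19Ter/H19Ter (Ter) and H19Ter+neo/H19Ter+neo (Ter+neo), and bars are the mean and SD (axes do not start at 0). All mutant points lie above WT for Ctcfl over Ctcf and Zfp57 over Zfp445 and below WT for Mbd3 over Mbd2 and Arid4a over Arid4b.

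Genes known to act with the members were followed through lists. Of 14 KRAB zinc finger corepressors and imprint maintenance genes, 7 were called lower in H19Ter and 11 in H19Ter+neo, with none called higher in either. Over all genes, 11% were called lower in H19Ter and 26.7% in H19Ter+neo, and 14.1% and 27.7% higher, and the counts of all lists are to be read against these shares. The median log2 difference of the list was -0.22 and -0.40, beside -0.01 and 0.01 for all genes. Setdb1, for the H3K9 methyltransferase, fell from 302 ± 6.72 CPM in WT to 255 ± 10.8 in H19Ter and 213 ± 1.79 in H19Ter+neo (log2 -0.24 and -0.50, limma adjusted p = 0.0154 and 5.45e-05). Cbx3 and Cbx5, for heterochromatin protein 1 forms, fell by 0.33 and 0.19 on the log2 scale in H19Ter and by 0.90 and 0.45 in H19Ter+neo (adjusted p at most 0.0373). Trim28, named after its values were seen, fell as well (-0.34 and -0.62, adjusted p = 0.0138 and 9.31e-05). The count of falls in H19Ter dropped to 2 at the same total per library and to 0, 2 and 1 without WT replicate 2, H19Ter replicate 3 or H19Ter replicate 4, while that in H19Ter+neo stayed at 8 to 11 in all 16 other settings.

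Of 21 cohesin genes and CTCF partners, 2 were called lower in H19Ter (Maz and, named after its values were seen, Pds5a), and 3 were called higher and 8 lower in H19Ter+neo (27.7% and 26.7% of all genes). Maz, for a zinc finger protein that works with CTCF as an insulator, was at 89.1 ± 2.06 CPM in WT, 65.7 ± 5.69 in H19Ter and 39.1 ± 4.12 in H19Ter+neo (log2 -0.44 and -1.19, limma adjusted p = 0.0142 and 1.41e-05). Cdca5 (sororin, which stabilizes cohesin) and Smc1a (a core cohesin subunit) fell in H19Ter+neo, by 1.04 and 0.51 on the log2 scale (adjusted p = 0.000135 and 7.23e-05). The 3 that rose there were, named after their values were seen, Rad21, Stag1 and Stag2, all for core cohesin subunits, by 0.33, 0.21 and 0.18. Of 4 germ cell cohesin genes, Stag3 rose in both mutants (0.19 and 0.29, adjusted p = 0.0458 and 0.00172) and Smc1b fell in both (-0.28 and -0.32, adjusted p = 0.0421 and 0.00722). Rad21l rose in H19Ter+neo (0.40, adjusted p = 0.00879), and Rec8, named after its values were seen, fell there (-0.40, adjusted p = 0.0140). In H19Ter these calls depended on the processing: 2 rises and 0 falls were called in this list at the same total per library and with median ratio scaling, 1 and 0 after removal of a trend on GC content and length, 0 and 1 at a pseudocount of 1 CPM, and 0 and 0 with voom. The cohesin list had 1 fall in H19Ter under either scaling and with voom and 5 after removal of the trend, and 5 falls in H19Ter+neo with median ratio scaling.

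Of 13 other genes for methyl-CpG readers or for proteins with related domains, 11 had a value. Zbtb4, named after its values were seen, was the 1 gene called in H19Ter, where it rose (0.83, limma adjusted p = 0.0162), and 4 rose and 4 fell in H19Ter+neo, beside 27.7% and 26.7% of all genes. The mismatch glycosylase gene Mbd4 and the MBD family gene Mbd6 fell in H19Ter+neo (-0.65 and -0.84, adjusted p = 0.000221 and 0.000110), as did the remodeller gene Baz2a (-0.25, adjusted p = 0.00210). Of 13 other NuRD subunit genes, 1 was called higher and 4 lower in H19Ter, and 2 higher and 8 lower in H19Ter+neo. The shares over all genes were 14.1% and 11% in H19Ter and 27.7% and 26.7% in H19Ter+neo. Chd4, for the main remodelling ATPase of NuRD, was at 826 ± 31.9 CPM in WT and 825 ± 12.8 in H19Ter but at 478 ± 19.1 in H19Ter+neo (log2 difference from WT -0.79, adjusted p = 7.71e-06). Mta1 and Gatad2a fell in both mutants (-0.56 and -0.27 in H19Ter, -1.14 and -0.58 in H19Ter+neo, adjusted p at most 0.0140). Chd3, the related ATPase gene and the 1 NuRD gene called higher in H19Ter, was named after its values were seen and rose by 0.84 there (adjusted p = 0.00115).

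Of 16 SIN3 complex genes, RB1 included, 15 had a value. In H19Ter 1 rose and 5 fell (14.1% and 11% of all genes), and in H19Ter+neo 3 rose and 7 fell (27.7% and 26.7%). The balance in H19Ter changed with the processing, to 2 rises and 1 fall at the same total per library, 2 and 3 with median ratio scaling, and 1 and 1 with voom. Sin3a, for the scaffold, fell in H19Ter+neo (-0.53, limma adjusted p = 3.59e-05) and Sap18 in both mutants (-0.42 and -1.05, adjusted p = 0.0489 and 9.69e-05). Hdac2 rose in H19Ter+neo, from 327 ± 15.5 CPM in WT to 460 ± 6.26 (0.49, adjusted p = 5.66e-05). Its paralogue Hdac1, named after its values were seen, fell in both mutants (-0.42 and -0.81, adjusted p = 0.0213 and 0.000122). Hdac2 and 3 more genes are shared with the NuRD list. Of 8 other ARID genes, 3 fell in H19Ter and 7 in H19Ter+neo, with none called higher, beside 11% and 26.7% of all genes called lower. After removal of the GC and length trend, 5 fell in H19Ter, and 1 rose and 6 fell in H19Ter+neo. Arid1a and Arid1b, for subunits of BAF remodelling complexes, fell in H19Ter+neo by 1.20 and 1.09 on the log2 scale (adjusted p = 8.65e-06 and 5.87e-05), and Arid5b by 0.77 (adjusted p = 8.27e-05). Counts in H19Ter rested on single libraries in every list. Without WT replicate 2 no fall was called there, and without H19Ter replicate 3 or 4 the falls dropped to 0 in the NuRD and SIN3 lists and to 2 or 0 among the ARID genes. For H19Ter+neo, leaving out WT replicate 2 took the falls from 8 to 4 in the cohesin list and from 7 to 4 in the SIN3 list and left 1 rise and 0 falls among the germ cell cohesin genes. Without WT replicate 1 or 2, the rises in the list of methyl-CpG readers and related genes dropped from 4 to 1 or 2.

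**Figure D5:**
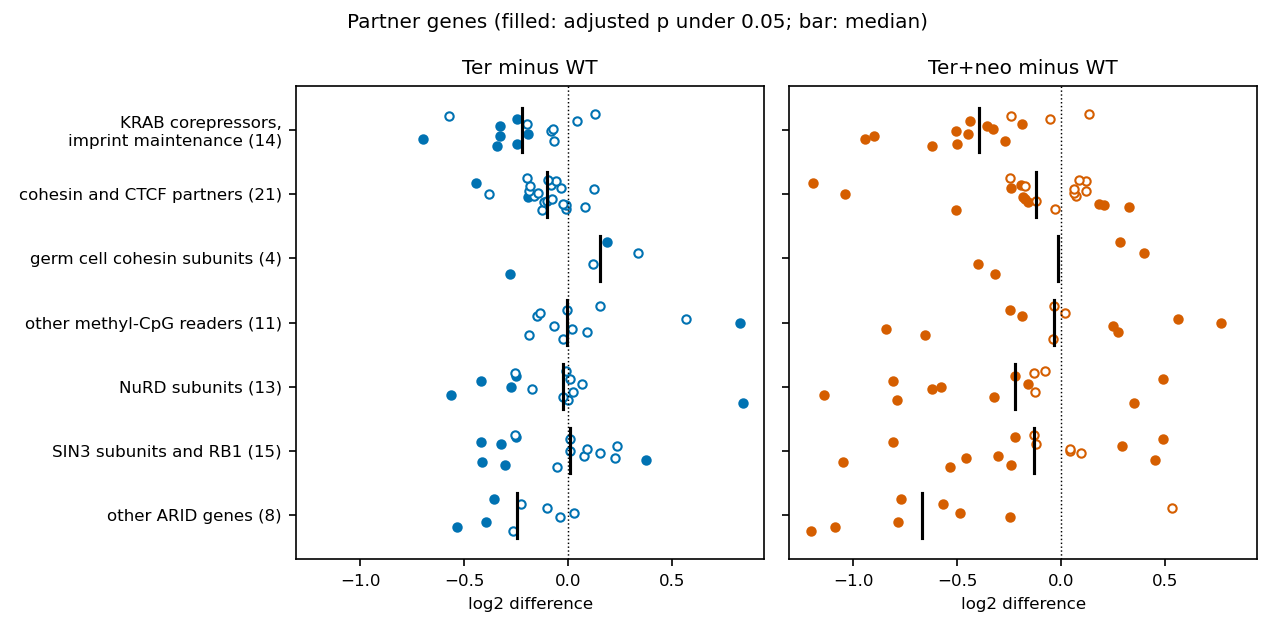
Log2 difference of each gene of the 7 partner lists, for H19Ter/H19Ter (Ter) minus WT on the left and H19Ter+neo/H19Ter+neo (Ter+neo) minus WT on the right, with the count of measured genes in brackets. Filled points passed the adjusted p of 0.05 and vertical bars are medians. The medians of the KRAB corepressor and other ARID lists lie at -0.40 and -0.67 in Ter+neo.

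The genes whose levels followed a member most closely over the 7 libraries were also listed, as a description. These libraries share genotype groups, so genes that differ between genotypes correlate. Among 14205 genes with a mean log2 CPM of at least 1, Ctcf was closest to Pcgf3 (Pearson r = 0.998), Usp16 (0.997) and Caprin2 (0.996), and 1807 genes had an r over 0.9. Zfp445 was closest to Faim (0.997), Stx16 (0.997) and Serinc3 (0.995), with 1592 genes over 0.9. Ctcfl was closest to Kif1b (0.992), Adamts7 (0.990) and Vdr (0.990), with 743 genes over 0.9. Zfp57 was closest to Pyurf (0.958), the gene ENSMUSG00000081519 (0.957) and Iho1 (0.948), and 12 genes passed 0.9. Among the members, Ctcf and Zfp445 ran together (r = 0.987), as did Mbd3 and Arid4a (0.974), and Ctcfl ran against Zfp445 (-0.94).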

How the data were processed

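Total RNA-seq of 7 libraries was analysed. Per the submitters' notes, the tools were Trim Galore 0.6.0, STAR 2.7.8, deepTools and edgeR, with mm10. The authors deposited log2 CPM values, made after scaling, with a mean prior count of 2 read pairs. Undoing both gave whole read pairs for 100% of values (tolerance 0.001). For the counting, annotation release and strand setting were not given in the sources used here. All 7 value columns were mapped to samples by their labels.

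The log2 values of 20643 genes were fitted with limma 3.58.1 (R 4.3.3), with genotype as the factor, 1 estimate of spread over the 7 libraries and a mean-variance trend. Calls were made at an adjusted p under 0.05. No filter on low values was used. The fit was also run on simulated data, with a dispersion of 0.01 for every gene and far fewer changed genes than were called here. That run cannot show whether the calls hold in these data. Coordinates, lengths and transcripts came from GENCODE vM21 (20610 genes matched) and promoters from RefSeq. Figures were drawn with matplotlib 3.10.9 (Python 3.11.15).

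The members and gene lists were chosen with earlier results of these data known. Genes named in the text are the 9 members, up to 3 genes per partner list (ranked by their smaller p against WT) and, for 4 members, the 3 genes with the highest r. Genes named after their values were seen are marked as such. Alternatives were other pseudocounts, a filter, other scalings, voom, only the groups compared, leaving out libraries, and removal of a trend on GC content and length.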

Additional observations from a re-analysis of the deposited data

How the results depend on the processing

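Calls in H19Ter+neo against WT were the most stable. Their count was 5 without any single library and 6 after removal of the GC and length trend. In H19Ter against WT the count ran from 0 to 4 of 9 members when single libraries were left out (0 without WT replicate 2 or H19Ter replicate 4, 1 without H19Ter replicate 3), and was 5 with only the groups compared, where Ctcf (adjusted p = 0.0443) and Zfp57 (0.0489) also passed limma. In H19Ter+neo against H19Ter the count ran from 1 to 2 (1 without either H19Ter library), and was 1 without both H19Ter replicate 3 and H19Ter+neo replicate 5, the libraries with more interstitial transcripts. No paired analysis was possible because no replicate number occurs in more than 1 genotype.

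Differences that changed sign were small, and all but 1 failed the test before and after. In H19Ter against WT, Mbd2 was 0.0622 at the same total per library and 0.00483 with median ratio scaling, and Arid4b was -0.0278 after removal of the GC and length trend. In H19Ter+neo against WT, Arid4b was -0.16 after that removal, where it passed (limma adjusted p = 0.0269), and Mbd2 ran from -0.0565 to 0.0437 when single libraries were left out. In H19Ter+neo against H19Ter, Mbd2 was -0.0427 at the same total, and Ctcfl was 0.0885 after removal of the trend. There, leaving out single libraries gave -0.0395 to 0.0606 for Mbd2, -0.0811 to 0.0107 for Arid4b and -0.16 to 0.0749 for Ctcfl. The causes were not tested.

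Over all genes, calls in H19Ter against WT fell from 5187 to 3092 with voom, and to 1408, 2260 and 1892 without WT replicate 2, H19Ter replicate 3 and H19Ter replicate 4. In H19Ter+neo against H19Ter, they fell from 5717 to 2326 and 2994 without H19Ter replicate 3 or 4, and to 2550 without both libraries named above. At the same total per library, 72.6% of the calls in H19Ter against WT were higher, beside 56.2% as deposited, and 31.9% beside 45.3% in H19Ter+neo against H19Ter. The log2 difference from H19Ter to H19Ter+neo had a Spearman rho of -0.34 with GC content across 14190 genes, which are not independent. Zfp57 rests on as few as 95 read pairs in a library.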
